A study of Mus musculus with 4 samples.

Results

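The Ampd3 locus of mouse chromosome 7 was described from DNase-seq lists of hypersensitive regions, the stretches of a genome that DNase I cuts most readily. Its members are all listed regions that overlap chr7:117860000-118010000 (mm9, positions as the deposited lists give them). There were 47 such regions of 202687 in the series. Regions that overlap or touch were merged over the lists, which gave 20 sites of 103288. The locus was chosen by measured values, the maximum tag densities after Dex and Dex+E2 of a site in it, so its Dex ratios are descriptions and not tests.

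All libraries came from 7438 cells, a mouse mammary line in which GFP-tagged glucocorticoid receptor (GR) and Cherry-tagged estrogen receptor (ER) are driven by a tetracycline-regulated promoter. Cells of every group were plated 48 h before the experiment in medium with charcoal-dextran serum, and tetracycline was removed 24 h before hormone, a step meant to induce both tagged receptors that the untreated cells went through too. Receptor levels were not measured in these data. The groups were Dex+E2 (100 nM dexamethasone with 100 nM estradiol), Dex (100 nM dexamethasone) and E2 (100 nM estradiol), each for 30 min, and untreated cells. Each group had 1 library, so no difference could be set against the spread between replicates, and intervals are 95% intervals for counting error only. Markers of mammary cells were not analysed here, since the lists name no genes.

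Ampd3 encodes AMP deaminase 3, which turns AMP into IMP in purine nucleotide metabolism and is the form known from erythrocytes. GR is a transcription factor that binds DNA once it holds a glucocorticoid such as dexamethasone, often at palindromic elements, and it can open chromatin there or bind where chromatin is already open. ER does the same with estradiol at elements of its own. In the RefSeq gene order of GRCm38, a later build than mm9, Ampd3 lies between Adm, which encodes the vasoactive peptide adrenomedullin, and Rnf141, with Lyve1, a hyaluronan receptor of lymphatic endothelium, beyond Rnf141. Which sites lie in exons, introns or promoters of these genes was not determined here, because no mm9 annotation was used.

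RefSeq (GRCm38.p6, plus strand) gives 3 Ampd3 promoters, each from 250 bases before to 50 bases after a start. A pair of them is shown because they differ most in base composition. The first has 22 CpG dinucleotides and 65.0% G or C and holds no match to the motifs searched. The second has 3 CpG dinucleotides and 51.3% G or C, and its capitals mark a match to the AP-1 motif TGANTCA that begins 12 bases after the start.
Ampd3 promoter 1: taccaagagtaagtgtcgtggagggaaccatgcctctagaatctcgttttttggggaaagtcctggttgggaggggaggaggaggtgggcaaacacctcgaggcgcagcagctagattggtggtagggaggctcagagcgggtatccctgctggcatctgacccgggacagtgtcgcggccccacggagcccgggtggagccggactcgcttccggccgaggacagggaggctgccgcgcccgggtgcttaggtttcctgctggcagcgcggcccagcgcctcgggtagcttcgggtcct
Ampd3 promoter 2: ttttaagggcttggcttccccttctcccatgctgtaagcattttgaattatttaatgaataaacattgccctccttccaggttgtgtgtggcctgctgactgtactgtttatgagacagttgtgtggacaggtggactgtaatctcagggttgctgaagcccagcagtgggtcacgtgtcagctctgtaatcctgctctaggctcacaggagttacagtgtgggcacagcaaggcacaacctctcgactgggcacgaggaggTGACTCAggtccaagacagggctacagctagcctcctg

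None of the 3 promoters held the palindromic GR element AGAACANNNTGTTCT, its looser form GNACANNNTGTNC, the single GR hexamer AGAACA (which the strict element contains) or the palindromic ER element GGTCANNNTGACC, on either strand. Among all 32851 RefSeq promoters of the same length, 0.00913% held the strict GR element, 0.475% the looser form, 19.0% the hexamer, 0.0700% the ER element and 7.81% the AP-1 motif. The sequence of the hypersensitive sites themselves was not analysed here, as no genome of build mm9 was used, and these promoters could not be placed on the sites.

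The window held 14 regions in the Dex+E2 list, 12 in the Dex list, 5 in the E2 list and 16 in the untreated list. They covered 8828 bp after Dex+E2, 7974 bp after Dex, 3013 bp after E2 and 9031 bp in untreated cells. With each list reduced to as many of its densest regions as the E2 list holds, they covered 8577 bp after Dex+E2, 7974 bp after Dex, 3013 bp after E2 and 6592 bp in untreated cells, so that untreated cells no longer had the most. The E2 list is also the shortest of the series, with 35496 regions, against 50061 in the Dex+E2, 51251 in the Dex and 65879 in the untreated list. Where a list lacks a site, the signal there did not pass the authors' cutoff, and closed chromatin is not thereby shown.

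**Figure D1:**
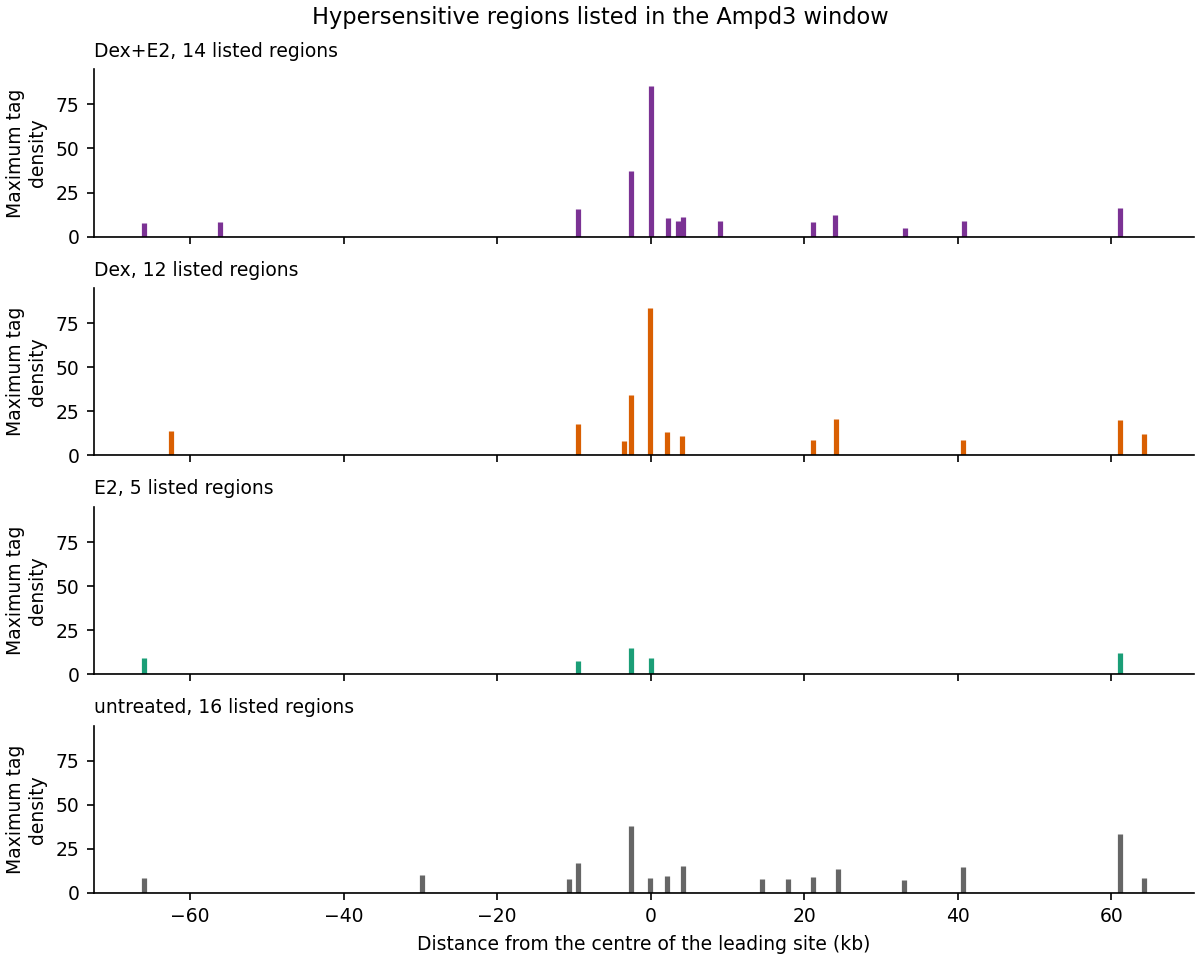
Regions listed in the 150 kb window, 1 panel for each library. The x axis is the distance of a region's centre from the centre of the leading site (kb), and the height of a line is the region's maximum tag density as deposited. The line at 0 kb reaches 85.3 after Dex+E2 and 83.5 after Dex, against 9.20 after E2 and 8.42 in untreated cells.

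The densest site by far in both libraries with Dex was chr7:117926276-117927250, called the leading site here. Its maximum tag density was 85.3 (76.9 to 94.4) after Dex+E2, 83.5 (74.9 to 92.9) after Dex, 9.20 (6.73 to 12.3) after E2 and 8.42 (5.79 to 11.8) in untreated cells, from 376, 341, 46 and 33 tags at the summit in that order. Both libraries with Dex therefore lay far above both libraries without it, and the counting intervals of these pairs do not overlap. Its average density was 19.9 after Dex+E2, 19.0 after Dex, 2.27 after E2 and 1.36 in untreated cells.

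All 4 lists held the leading site. By maximum density it was an ordinary listed region in both libraries without Dex. It ranked 367 of 50061 regions by maximum density after Dex+E2 and 326 of 51251 after Dex, against 12702 of 35496 after E2 and 34816 of 65879 in untreated cells. These ranks do not depend on how the libraries were scaled, although they depend on how many regions each list holds. The authors' Z score of the region was 98.6 after Dex+E2, 87.9 after Dex, 10.2 after E2 and 6.08 in untreated cells, where their lists begin at 5.15, 5.18, 5.26 and 4.95 in that order.

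The listed extent of the leading site differed as well. It was 935 bp after Dex+E2, 941 bp after Dex, 626 bp after E2 and 286 bp in untreated cells. The untreated region lay inside the E2 region, and the E2 region inside both regions seen with Dex. Between Dex and untreated cells the extent differed by 655 bp, while the median region found in all 4 lists was 144 bp narrower after Dex (−144 bp), and 99.6% of those regions had a smaller difference. Between Dex+E2 and E2 the site differed by 309 bp, against a median of 103 bp, and 83.9% of the shared regions had a smaller difference. E2 and untreated cells had nearly the same maximum at the leading site, yet the E2 region was 340 bp wider, against a median of −300 bp. In the untreated list 13.1% of regions were narrower than the leading site, against 68.1% in the E2 list, 85.4% in the Dex list and 89.6% in the Dex+E2 list.

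**Figure D2:**
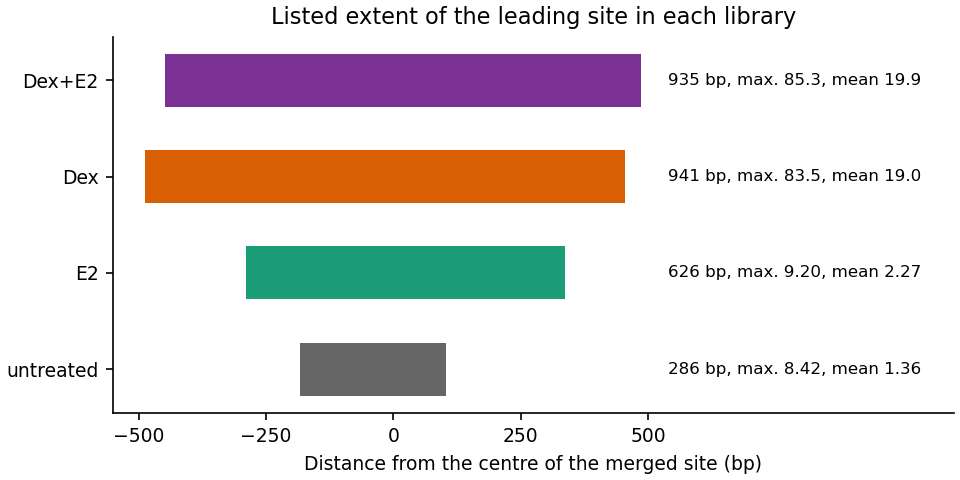
Extent of the leading site as listed in each library. Bars run from the start to the end of the region, in bp from the centre of the merged site, and the text gives the width with the maximum and average tag density. The region spans 935 bp after Dex+E2 and 941 bp after Dex, against 626 bp after E2 and 286 bp in untreated cells.

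Densities over the whole series were higher in the untreated library, so each ratio has 2 forms, as deposited and after division of both densities by a library median. The median, taken over the 20687 regions that all 4 lists share, was 15.4 after Dex+E2, 14.7 after Dex, 10.2 after E2 and 30.1 in untreated cells. The total to which the authors scaled each library is not given in the sources used here.

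Dex over untreated was 9.92-fold (6.93 to 14.6) at the leading site as deposited and 20.3-fold (14.2 to 30.0) relative to the medians. Only 1 of the 20687 shared regions had a higher ratio to the medians. Dex+E2 over E2 was 9.27-fold (6.81 to 12.9) as deposited and 6.13-fold (4.51 to 8.52) relative to the medians, again with 1 region higher. Dex+E2 over untreated was 10.1-fold (7.09 to 14.9) and 19.8-fold (13.8 to 29.1), the highest ratio of all shared regions relative to the medians.

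By the smaller of its Dex ratios, the value that picked it within the window, the leading site was the second of the 20687 shared regions, at 6.13-fold. A region on chromosome 18 came first at 6.25-fold, and the third, chr12:76404928-76406074, stood at 5.84-fold. Around the 2-fold limit used here, chr12:17753343-17755437 lay just inside at 2.00001-fold and chr11:20758668-20759779 just outside at 1.99981-fold. In all 285 regions, 1.38% of the shared ones, were at least 2-fold higher in both Dex comparisons, and the leading site was 1 of these, which follows from how the locus was chosen.

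As deposited, densities with and without E2 differed little at the leading site. Dex+E2 over Dex was 1.02-fold (0.880 to 1.19) and E2 over untreated 1.09-fold (0.684 to 1.76), and both intervals include no change. Relative to the medians, Dex+E2 over Dex was 0.973-fold (0.838 to 1.13), while E2 over untreated was 3.23-fold (2.02 to 5.21). The last value thus depends on the scaling, and 97.4% of the shared regions had a lower one.

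The Dex ratio with E2 minus the Dex ratio without E2 was −0.10 on the log2 scale as deposited and −1.73 relative to the medians. Over all shared regions the second quantity had a median of −0.02 and an SD of 0.61, and 2.41% lay below the leading site. Among the 285 regions higher in both Dex comparisons its median was −0.27, with 2.11% below the leading site. The value turns on the scaling, and whether Dex acted differently with E2 present was not tested, for want of replicates.

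**Figure D3:**
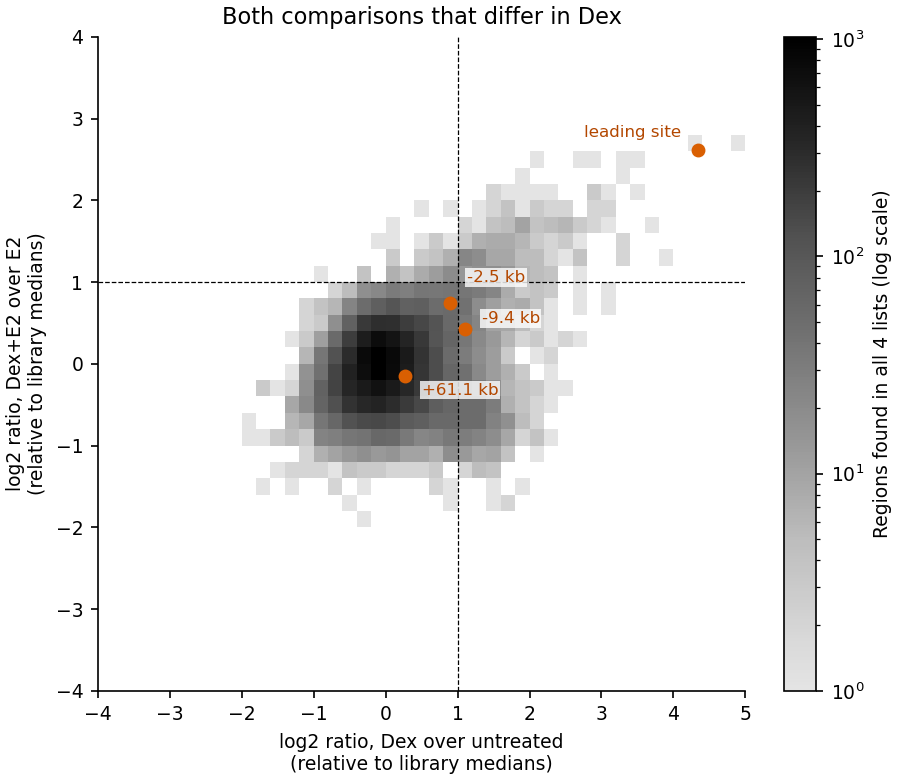
Log2 ratio of maximum density, Dex over untreated on the x axis and Dex+E2 over E2 on the y axis, relative to library medians. Grey cells count the 20687 regions found in all lists, orange points are the 4 window sites among them, and dashed lines mark the 2-fold limit. The leading site stands at 4.34 and 2.62, and the other 3 sites lie at 0.27 to 1.10 and −0.15 to 0.74.

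Besides the leading site, 3 sites of the window were found in every list. The nearest was chr7:117923791-117924693, with its centre at −2.52 kb from that of the leading site. It had 37.0 (31.5 to 43.1) after Dex+E2, 34.3 (28.8 to 40.5) after Dex, 14.6 (11.4 to 18.4) after E2 and 37.7 (31.9 to 44.3) in untreated cells. This was the densest window site in the E2 and untreated lists, and the E2 library alone stood apart as deposited. Its width was 884 bp after Dex+E2, 879 bp after Dex, 635 bp after E2 and 753 bp in untreated cells.

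At this neighbour, Dex over untreated was 0.908-fold (0.716 to 1.15) as deposited and 1.86-fold (1.47 to 2.36) relative to the medians. Dex+E2 over E2 was 2.53-fold (1.91 to 3.39) and 1.67-fold (1.26 to 2.24). The site thus did not reach the 2-fold limit in both Dex comparisons on either scale. E2 over untreated was 0.387-fold (0.288 to 0.515) and 1.14-fold (0.8501 to 1.52).

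The site chr7:117916935-117917751, at −9.42 kb, had 15.4 (12.0 to 19.6) after Dex+E2, 17.6 (13.8 to 22.2) after Dex, 7.60 (5.38 to 10.4) after E2 and 16.8 (13.0 to 21.4) in untreated cells. Again the E2 library was lowest and the other 3 overlapped in their intervals. Relative to the medians it was 2.15-fold (1.51 to 3.04) higher after Dex than in untreated cells and 1.34-fold (0.890 to 2.05) after Dex+E2 than after E2. As deposited these were 1.05-fold and 2.03-fold.

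At the far end, chr7:117987486-117988311 (+61.1 kb) had 16.1 (12.6 to 20.3) after Dex+E2, 19.8 (15.8 to 24.7) after Dex, 11.8 (8.98 to 15.2) after E2 and 33.7 (28.2 to 39.9) in untreated cells. Here, as deposited, the untreated library stood above all 3 hormone libraries. Relative to the medians, Dex over untreated was 1.21-fold (0.904 to 1.60) and E2 over untreated 1.03-fold (0.748 to 1.42), so that the site moved much as the median shared region did.

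**Figure D4:**
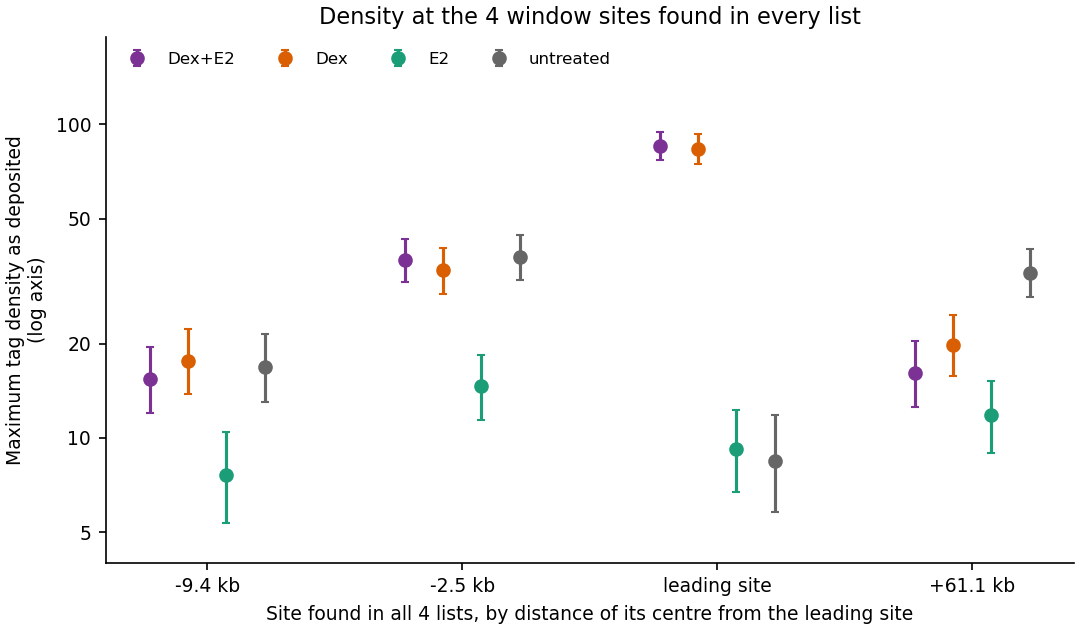
Maximum tag density as deposited (log axis) at the 4 window sites found in all lists, by library, with exact Poisson 95% intervals. At the leading site both libraries with Dex lie at 83.5 or above and both without it at 9.20 or below, whereas no other site shows this split.

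Counted over these 4 sites relative to the medians, 2 were at least 2-fold higher after Dex than untreated, where 6.69% of the 20687 shared regions were. For Dex+E2 over E2 it was 1 site (1.78% of shared regions), for Dex+E2 over untreated 1 site (7.19%), for Dex+E2 over Dex 0 sites (1.84%) and for E2 over untreated 1 site (7.89%). In every one of these counts that was above 0, the leading site was included. None of the 4 sites was at least 2-fold lower in any of the 5 comparisons, against 0.595% (Dex over untreated), 1.04% (Dex+E2 over E2), 1.58% (Dex+E2 over untreated), 0.889% (Dex+E2 over Dex) and 0.445% (E2 over untreated) of shared regions. As deposited, the higher sites numbered 1 for Dex over untreated (0.551% of shared regions), 3 for Dex+E2 over E2 (13.5%), 1 for Dex+E2 over untreated (1.1%), 0 for Dex+E2 over Dex (2.41%) and 0 for E2 over untreated (0.16%). The lower sites as deposited numbered 0 for Dex over untreated (54.1%), 0 for Dex+E2 over E2 (0.029%), 1 for Dex+E2 over untreated (45.8%), 0 for Dex+E2 over Dex (0.59%) and 3 for E2 over untreated (83.9%).

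Within a library, summits can be compared without any scaling. The leading site had 2.31 times (1.91 to 2.79) the tags of its nearest shared neighbour after Dex+E2, 2.44 times (1.99 to 2.99) after Dex, 0.630 times (0.426 to 0.924) after E2 and 0.223 times (0.148 to 0.327) in untreated cells. Its order against the neighbour was thus turned round between libraries with and without Dex. Against the site at −9.42 kb the ratio was 5.53 (4.26 to 7.27) after Dex+E2, 4.74 (3.66 to 6.20) after Dex, 1.21 (0.771 to 1.91) after E2 and 0.50 (0.319 to 0.770) in untreated cells. Against the site at +61.1 kb it was 5.30 (4.10 to 6.92), 4.21 (3.30 to 5.43), 0.780 (0.518 to 1.17) and 0.250 (0.165 to 0.368) in the same order. In these ratios E2 cells lay between the libraries with Dex and untreated cells, and the intervals of E2 and untreated cells did not overlap, though at −9.42 kb they all but touched. All such ratios share the leading site's tags, so they are not independent of each other.

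**Figure D5:**
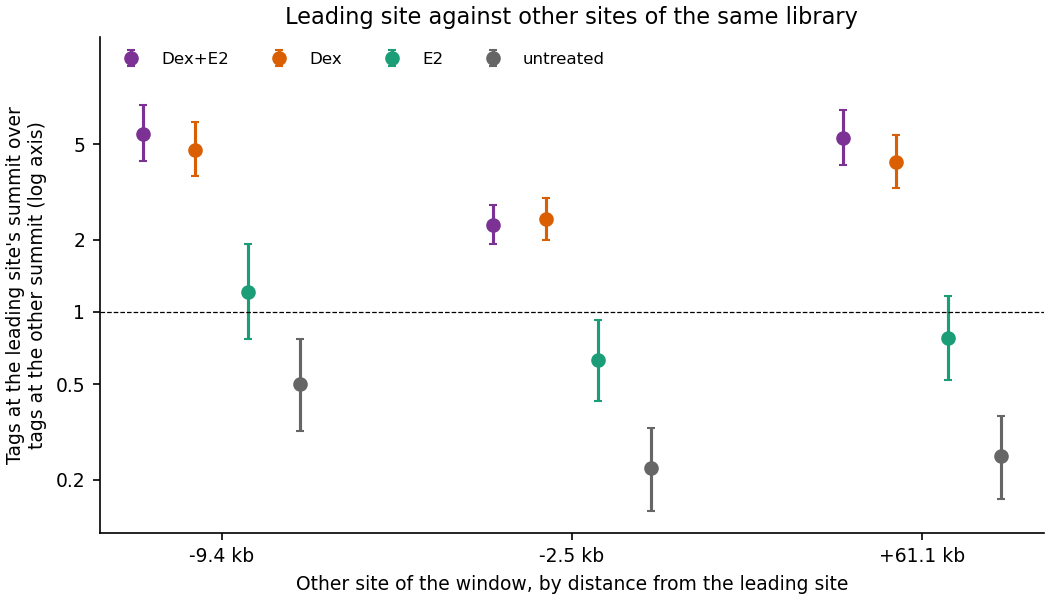
Tags at the summit of the leading site divided by tags at the summit of each other shared window site in the same library (log axis), with exact 95% intervals for counting error. Both libraries with Dex lie between 2.31 and 5.53, against 0.630 to 1.21 after E2 and 0.223 to 0.50 in untreated cells.

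By the product of average density and width, both libraries with Dex again came first, then E2 and then untreated cells. The leading site made up 41.1% of this product over all listed regions of the window after Dex+E2, 40.1% after Dex, 16.2% after E2 and 1.07% in untreated cells. The E2 share rests on 5 listed regions that cover 3013 bp, and sites that a list lacks do not enter its sum.

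Of the remaining sites, 6 were in 3 lists, 2 in 2 lists and 8 in 1 list. These were 30%, 10% and 40% of the window sites. Over the series, 8.69% of merged sites were in 3 lists, 12.46% in 2 lists and 58.83% in 1 list. Sites in all 4 lists were 20% of the window sites and 20.03% of merged sites. None of these shares was tested against the series. Most window sites in 3 lists (5 of 6) lacked only E2, the shortest list, as did 6024 of the 8974 merged sites of the series in 3 lists. Over the series, 5.83% of merged sites had this pattern, against 25% of the 20 window sites, a difference that was not tested.

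The site chr7:117950297-117951456 was the densest of these after Dex. It had 12.3 (9.20 to 15.98) after Dex+E2, 20.8 (16.6 to 25.7) after Dex and 13.8 (10.3 to 18.0) in untreated cells. The Dex library was thus the highest, and adding E2 went with a lower value, 0.589-fold (0.411 to 0.837) for Dex+E2 over Dex as deposited and 0.561-fold (0.391 to 0.798) relative to the medians. Dex over untreated was 1.51-fold (1.06 to 2.17) as deposited and 3.10-fold (2.18 to 4.44) relative to the medians. Its regions were 1113 bp wide after Dex+E2 and 1026 bp after Dex, against 561 bp in untreated cells.

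Next to the leading site on its other side, chr7:117928418-117929414 (+2.15 kb) had 10.4 (7.64 to 13.9) after Dex+E2, 13.5 (10.1 to 17.5) after Dex and 9.44 (6.64 to 13.0) in untreated cells. All 3 intervals overlap as deposited. Dex+E2 over untreated was, however, 2.16-fold (1.37 to 3.42) and Dex over untreated 2.92-fold (1.89 to 4.56) relative to the medians. The next one, chr7:117930087-117931325 (+3.94 kb), had 11.1 after Dex+E2, 11.0 after Dex and 15.0 in untreated cells, and in the Dex+E2 list it was split into regions of 515 bp and 485 bp with maxima of 8.62 and 11.1. At this second site Dex+E2 over untreated was 1.44-fold (0.966 to 2.14) and Dex over untreated 1.5-fold (0.995 to 2.25) relative to the medians. On this side, densities with Dex thus overlapped those of untreated cells as deposited. Relative to the medians they lay above them, at the nearer site beyond counting error, which depends on the divisor. The median over a whole list differed less, at 8.17 after Dex+E2, 7.84 after Dex and 8.93 in untreated cells. Of all sites in both the Dex and untreated lists, 11.8% were at least 2-fold higher after Dex relative to the medians. Only 0.406% were at least 2-fold lower.

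Further out, chr7:117947642-117948199 had 8.17 after Dex+E2, 8.57 after Dex and 9.18 in untreated cells, which lie within each other's counting error as deposited. Relative to the medians, Dex+E2 over untreated was 1.74-fold (1.06 to 2.83) and Dex over untreated 1.91-fold (1.17 to 3.13). At chr7:117967099-117967979 the values were 8.85 after Dex+E2, 8.82 after Dex and 14.5 in untreated cells, where the untreated region was highest as deposited. The direction turned relative to the medians, with Dex+E2 over untreated at 1.19-fold (0.769 to 1.82) and Dex over untreated at 1.24-fold (0.795 to 1.92), both within counting error of no change. The site chr7:117860489-117861116 lacked only Dex, with 7.71 after Dex+E2, 8.999 after E2 and 8.16 in untreated cells, and all 3 intervals overlap as deposited. With the medians as divisors, Dex+E2 over E2 was 0.567-fold (0.352 to 0.905) and E2 over untreated 3.25-fold (2.02 to 5.29).

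Sites in 2 lists were chr7:117959509-117960061, with 4.76 after Dex+E2 and 7.40 in untreated cells, and chr7:117990700-117991288, with 12.2 (9.09 to 16.1) after Dex and 8.16 (5.58 to 11.5) in untreated cells. Both pairs have overlapping intervals as deposited. Relative to the medians, Dex+E2 over untreated was 1.26-fold (0.681 to 2.28) at the first, and Dex over untreated was 3.07-fold (1.93 to 4.95) at the second, against 1.5-fold (0.944 to 2.42) as deposited.

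The 8 sites in 1 list had maximum densities of 7.91 to 13.7. Untreated cells alone had 4, at chr7:117896688-117897248 (10.2), chr7:117916042-117916345 (7.91), chr7:117941111-117941404 (7.91) and chr7:117944482-117944981 (7.91). Dex alone had chr7:117863973-117864633 at 13.7 (10.4 to 17.8), in the densest 24.1% of the Dex list, and chr7:117923145-117923410 at 8.33. Dex+E2 alone had chr7:117870505-117870952 at 8.17 and chr7:117935576-117936153 at 9.07. Untreated cells alone thus had 20% of the window sites, Dex alone 10% and Dex+E2 alone 10%. Over the series these shares were 26.0%, 14.3% and 11.5% of merged sites, none of them below the share in the window. No site was in the E2 list alone, and none was listed in both libraries with Dex and in neither without it. The series shares of these last patterns were not computed, so their absence has no background beside it and is not read as a trait of the locus.

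The regions elsewhere whose pattern was most like the leading site were found by the distance between log2 densities relative to the medians, over the 4 libraries. The median distance of all other shared regions was 4.19 and the nearest 1% lay within 2.69. Closest was chr3:94717413-94718267, at a distance of 0.849, with 61.0 after Dex+E2, 52.7 after Dex, 9.60 after E2 and 9.69 in untreated cells. Next came chr11:11744158-11745160 (distance 0.860), with 62.6, 67.8, 7.80 and 13.0 in the same order. The other 3 were chr2:152645642-152647130 (1.09), chr12:76404928-76406074 (1.11) and chr5:35978269-35979440 (1.13). In all 5 both libraries with Dex had at least 49.0, while the libraries without Dex had at most 18.4. That split follows from how the regions were chosen, by their densities in these same libraries.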

How the data were processed

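DNase-seq lists of 4 libraries of 7438 cells were used, grouped by the treatment in the labels. The submitters' processing notes name build mm9 and CASAVA 1.8 without saying what it did. Aligner and region caller: not given in the sources used here. Each region carries, per the file headers, the authors' maximum tag density and mean tag density (signal scaled library by library), a deposited Z score and a deposited p-value. The score and the p-value belong to a region within its library. Z scores of the leading site are listed side by side, but no ratio or difference between libraries was computed from scores or p-values.

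In each list 100% of the maximum densities came out as whole numbers of a step, with a tolerance of 0.02 tags. The steps of 0.227 (Dex+E2), 0.245 (Dex), 0.200 (E2) and 0.255 (untreated) were read as 1 tag. If all libraries were scaled to 1 total, relative depth was 1.12 for Dex+E2, 1.04 for Dex and 1.28 for E2, with untreated at 1. The median region had 36 tags at its summit after Dex+E2, 32 after Dex, 37 after E2 and 35 in untreated cells.

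Regions that overlap or touch were merged, with the highest value of a library kept. Width is end minus start, and the first base may be numbered 0 or 1, which no header says. Intervals are exact Poisson intervals for a density and exact conditional binomial (Clopper-Pearson) intervals for a ratio, at 95%. They treat tags as independent molecules. No p-value was computed, as each group had 1 library. All 20 window sites are named, with the 5 most like regions by the smallest distance. The locus, the lists and the limits were chosen with earlier results of these data known. Functions were tested on simulated data. The planned marker and purine gene lists need an mm9 annotation and were not analysed here. Alternatives covered scaling, density measure, fold limit, joining within 150 bp, window size and list length. Software versions were SciPy 1.17.1, pandas 2.3.3 and NumPy 2.4.6 under Python 3.11.15, with Matplotlib 3.10.9 for plots.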

Additional observations from a re-analysis of the deposited data

Results flagged for a closer look

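At some window sites the same hormone went with opposite directions in its 2 comparisons, relative to the medians, and none of these differences was tested. In every such pair at least 1 of the ratios had a counting interval that includes no change, so the opposite signs can lie within counting error. For E2, the log2 ratio at the site at −9.42 kb was −0.26 for Dex+E2 over Dex and 0.41 for E2 over untreated. At the leading site the values were −0.040 and 1.69, and at the site at +61.1 kb −0.37 and 0.05. For Dex, the site at +61.1 kb had −0.15 for Dex+E2 over E2 and 0.27 for Dex over untreated. As deposited, both E2 comparisons had 1 direction at each of these sites, lower at −9.42 kb (0.875-fold and 0.451-fold) and +61.1 kb (0.812-fold and 0.350-fold) and higher at the leading site (1.02-fold and 1.09-fold). The Dex comparisons at +61.1 kb stayed opposite as deposited, but the other way round (1.37-fold for Dex+E2 over E2 and 0.589-fold for Dex over untreated).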

How the results depend on the processing

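No paired analysis was possible because each group had 1 library, and no replicate could be left out. At the leading site, densities as deposited gave log2 ratios of 3.31 for Dex over untreated, 3.21 for Dex+E2 over E2, 3.34 for Dex+E2 over untreated and 0.13 for E2 over untreated, and −0.10 for the difference between both Dex ratios. The product of average density and width gave 6.80, 6.76 and 3.82 for Dex, Dex+E2 and E2 over untreated, and −3.86 for that difference, since the untreated region was also narrow. Division by the nearest shared site, an alternative chosen after seeing the data, gave 3.45 for Dex over untreated, 1.87 for Dex+E2 over E2 and 3.37 for Dex+E2 over untreated. Sites at least 2-fold higher numbered, as deposited, 1 for Dex over untreated (0.551% of shared regions), 3 for Dex+E2 over E2 (13.5%) and 0 for E2 over untreated (0.16%). Sites at least 2-fold lower numbered 1 for Dex+E2 over untreated (45.8%) and 3 for E2 over untreated (83.9%). For Dex over untreated, average densities gave 1 higher site (6.17% of shared regions) and a 4-fold limit 1 (0.628%), and that limit gave 0 for E2 over untreated (1.05%). A 1.5-fold limit gave 2 for Dex+E2 over E2 (6.8%) and 3 for Dex+E2 over untreated (15.3%). Counting sites in both lists of a comparison gave 5 for Dex over untreated (11.8% of such sites), 2 for Dex+E2 over untreated (10.7%) and 2 for E2 over untreated (14.4%). A window 50 kb wider on each side held 20 Dex+E2 and 10 E2 sites, against 13 and 5. At the other sites 37 of 175 values moved beyond their counting interval, most of them as deposited. On that scale 25 values moved and 10 did not. The product of average density and width moved 9 and left 26, and average density moved 3 and left 32. With the upper quartile as divisor, or regions within 150 bp joined, all 35 values stayed in each case. No ratio that was at least 2-fold relative to the medians changed direction, but smaller ones did: E2 over untreated at the sites at −9.42, −2.52 and +61.1 kb was 0.41, 0.19 and 0.05 on the log2 scale and −1.15, −1.37 and −1.51 as deposited. With 33 tags at the untreated summit of the leading site, counting error limits every ratio to it.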

Other observations

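Of 16558 consecutive 150 kb windows of the genome that held a merged site, 144 (0.870%) held 20 or more, as the Ampd3 window did, and the median was 5. These windows lay on a fixed grid. The Ampd3 window, placed around a locus chosen by measured values, is not one of them, so the share is not its rank. At least 4 sites found in all lists were in 1959 of the 16558 windows (11.8%). A site at least 2-fold higher in both Dex comparisons was in 264 windows (1.59%), and 19 windows (0.115%) had 2 or more. Window sites in 1 list had maximum densities of 7.91 to 13.7, with a median of 8.25, against a median of 5.39 over all 60761 such sites of the series. The untreated region of the leading site was unusually peaked: its average density was 0.162 of its maximum, and 3.72% of the regions of that list had a lower value.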
